A study of Homo sapiens with 12 samples.

Results

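Azurophil granules, also called primary granules, are the first granules that a developing neutrophil fills, at the promyelocyte stage. Myeloperoxidase (MPO) is their most abundant protein, a heme enzyme that turns hydrogen peroxide and chloride into hypochlorous acid. It is stored there with the proteoglycan serglycin, serine proteases, lysozyme and lysosomal hydrolases, and in bone marrow the transcripts of MPO and the serine proteases fall as the cell matures. Described here are 10 genes picked by name: MPO, the serine protease family genes PRTN3, CTSG, AZU1 and PRSS57, and the genes CTSC, SERPINB1, SRGN, LYZ and GUSB. Each stood in 1 row of a table of 10465 rows. MPO was singled out because it was known to be low with glucose alone and high with both agents, so its values with glucose and with both agents are a description with no test.

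The cells were HL-60, a line from a human promyelocytic leukaemia, made neutrophil-like by an agent that the labels do not name. RNA was sequenced from 12 libraries, 3 in each of 4 groups held for 24 h. The control group received BSA (bovine serum albumin) at 0.05 µg/mL, and a further group AGEs (advanced glycation end products) at 0.05 µg/mL. The glucose group received 30 mmol/L D-glucose, and the last group AGEs at 0.05 µg/mL with 30 mmol/L D-glucose. BSA is named for the control group alone, so an effect of glucose and the loss of BSA cannot be told apart in a comparison with BSA. Nothing in the labels says whether each library is a culture of its own. The p-values therefore refer to the spread among these libraries, which may be technical.

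Values were FPKM (fragments scaled to gene length and to library size), which sum to between 220444 and 233854 per library and keep no read depth. The highest of the 4 group means was at least 0.5001 FPKM in every row. Of the neutrophil markers, 14 of 16 were in the table, at uneven levels, while CXCR1 and FCGR3B were not analysed here. CYBB, S100A9 and NCF4 were the highest, at 375.5, 396.9 and 337.3 FPKM over the 12 libraries. FPR2 and S100A12 were the 2 under 2 FPKM, and S100A12 was the lowest, at 0.282 FPKM. Of the markers of eosinophils and basophils, 8 of 16 were in the table, at uneven levels. CLC stood at 2362 FPKM, PRG2 at 143.2, CCR3 at 22.9 and EPX at 14.2. GATA1, PRG3, RNASE2 and IL5RA stood at 3.34, 3.19, 1.55 and 0.94 FPKM. AGEs 1 stood apart from the other libraries: it held the highest value of 21.9% and the lowest value of 23.5% of the 9751 genes tested. Glucose 3 came next for highest values, with 14.9% (lowest 10.1%), and had the lowest FPKM sum. Differences between AGEs and BSA that rest on AGEs 1 are given with and without it, and counts over gene lists with it only. MPO in glucose 3 was 92.3 FPKM, against 90.5 and 90.1 in the other glucose libraries.

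The serine proteases stored with MPO had low levels, at or below the 11.9th percentile of all rows, and the sequences just before 3 of their genes are shown for that reason. PRTN3 and AZU1 are neighbours on chromosome 19, and PRTN3 is followed there by ELANE, the gene of neutrophil elastase, which was not analysed here. The windows are the 150 bases before the gene start in RefSeq on GRCh38.p14. They lie at chr19:840849-840998 on the plus strand for PRTN3, chr19:827687-827836 on the plus strand for AZU1 and chr14:24576251-24576400 on the minus strand for CTSG. Capitals mark matches to short cores searched on both strands: GAGGAA for PU.1, TTNNGNAA for C/EBP, TGTGGT for RUNX and TATAAG for the TATA box.
PRTN3: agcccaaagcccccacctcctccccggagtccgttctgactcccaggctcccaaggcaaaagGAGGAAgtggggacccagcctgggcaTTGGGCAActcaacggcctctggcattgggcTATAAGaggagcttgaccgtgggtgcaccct
AZU1: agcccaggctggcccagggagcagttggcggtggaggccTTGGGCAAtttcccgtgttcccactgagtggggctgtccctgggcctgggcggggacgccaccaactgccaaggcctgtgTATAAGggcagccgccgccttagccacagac
CTSG: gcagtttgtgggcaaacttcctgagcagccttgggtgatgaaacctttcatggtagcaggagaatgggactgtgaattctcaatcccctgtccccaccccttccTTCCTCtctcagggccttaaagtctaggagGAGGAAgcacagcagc
The cores were chosen after these sequences had been read. In PRTN3 a PU.1 core began 88 bases, a C/EBP core 62 bases and a TATA box 31 bases before the gene start. AZU1 held the same 8 letters at its C/EBP core, TTGGGCAA, 111 bases before the start, and a TATA box at the same distance of 31 bases. CTSG held PU.1 cores that began 46 and 16 bases before its start. PRSS57, at the 7.68th percentile, is not printed. Its window held a RUNX core that began 77 bases before the start and none of the other cores. Of the 35116 windows of 250 bases in RefSeq, 23.6% held the PU.1 core, 33.2% the C/EBP core, 11% the RUNX core and 5.03% the TATA box. Of the 10 genes, 7 had such a window, and these cores stood in 2, 4, 1 and 3 of the 7. A match describes letters only, and binding was not measured here.

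FPKM is scaled to gene length, so levels of different genes can be set side by side. With BSA the genes spanned from 645 FPKM for SRGN, the core protein of serglycin, to 0.477 FPKM for CTSG. SERPINB1, a cytosolic inhibitor of neutrophil elastase, proteinase 3 and cathepsin G, stood at 117.7 ± 5.04 FPKM and MPO at 109.8 ± 6.69 (SD, n = 3). The libraries of this pair overlapped, so their order with BSA is not resolved. GUSB, a lysosomal beta-glucuronidase, followed at 41.6 ± 4.54, CTSC at 22.1 ± 0.181 and LYZ at 8.11 ± 0.69 FPKM. CTSC is cathepsin C, the dipeptidyl peptidase that activates the granule serine proteases, and LYZ is lysozyme, which cleaves bacterial cell walls. From SRGN to SERPINB1 and from MPO down to PRTN3, each step in this order was wider than the range of the libraries.

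**Figure D1:**
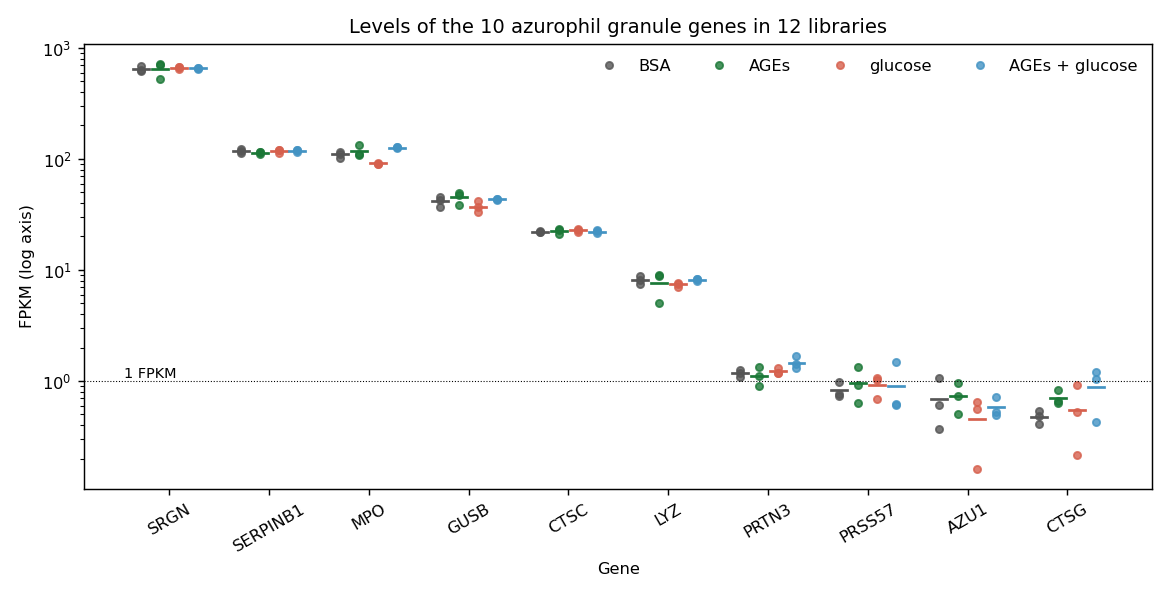
FPKM (log axis) of the 10 genes in the 12 libraries, with 1 point per library and a bar at each group mean; colours mark the groups and the dotted line marks 1 FPKM. SRGN stands highest at 522.1 to 712.6 FPKM, MPO lies between 90.1 and 134.2, and PRTN3, PRSS57, AZU1 and CTSG lie near 1 FPKM.

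The 4 genes of the serine protease family lay far below MPO. PRTN3, proteinase 3, read 1.26, 1.08 and 1.19 FPKM in the BSA libraries, 1.34, 0.893 and 1.1 with AGEs, 1.3, 1.18 and 1.17 with glucose and 1.41, 1.32 and 1.66 with both agents. Its level was at the 11.9th percentile of all rows, while MPO was at the 97.7th. The libraries with both agents were all above those with BSA and those with glucose, and overlapped those with AGEs. CTSG, cathepsin G, read 0.408, 0.536 and 0.488 FPKM with BSA, 0.656, 0.826 and 0.638 with AGEs, 0.527, 0.915 and 0.215 with glucose and 1.04, 0.423 and 1.2 with both agents. The AGEs libraries were all above the BSA libraries, at levels below 1 FPKM, but glucose and both agents overlapped every group. Of the 9751 genes tested, 8.8% did not overlap between AGEs and BSA, 470 of them higher and 388 lower. With no filter on low values the CTSG difference had a limma adjusted p of 0.973.

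AZU1, azurocidin, an antimicrobial relative of these proteases that has lost its protease activity, read 0.605, 0.371 and 1.07 FPKM with BSA and 0.734, 0.951 and 0.504 with AGEs. With glucose it read 0.162, 0.648 and 0.564 FPKM, and with both agents 0.52, 0.724 and 0.497, so all groups overlapped. PRSS57, neutrophil serine protease 4, read 0.972, 0.757 and 0.731 FPKM with BSA and 1.33, 0.926 and 0.629 with AGEs. With glucose it read 1.07, 1.02 and 0.686 FPKM and with both agents 1.47, 0.606 and 0.619, again with overlap between all groups. Among PRSS57, AZU1 and CTSG, neighbours in the order of levels overlapped in each group. Summed, the 4 genes gave 3.16 ± 0.375 FPKM with BSA, 3.51 ± 0.601 with AGEs, 3.15 ± 0.571 with glucose and 3.83 ± 0.697 with both agents (SD, n = 3). MPO was 35.3 ± 6.36 times that sum with BSA, 33.8 ± 3.62 times with AGEs, 29.5 ± 5.57 times with glucose and 33.7 ± 6.12 times with both agents.

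A filter on low values asked for at least 1 FPKM in at least 3 libraries, and 8 of the 10 genes passed it. PRSS57, with 4 such libraries, stood just inside, and CTSG and AZU1, with 2 and 1, just outside, so neither of the latter entered the main test. The 4 libraries of PRSS57 were 1 with AGEs, 2 with glucose and 1 with both agents, and 0 with BSA. PRSS57 thus passed only through groups set against BSA.

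MPO read 111.5, 115.5 and 102.4 FPKM in the BSA libraries and 134.2, 110.1 and 108.2 with AGEs. With glucose it read 90.5, 90.1 and 92.3 FPKM, and with both agents 127.3, 124.3 and 126.7. The glucose libraries were the lowest 3 of the 12, below every BSA and AGEs library. The libraries with both agents were above every BSA library and below only AGEs 1. The group means were 109.8 ± 6.69 with BSA, 117.5 ± 14.5 with AGEs, 90.9 ± 1.2 with glucose and 126.1 ± 1.57 with both agents (SD, n = 3). MPO with glucose was 0.828 times, and with both agents 1.15 times, its level with BSA. Between both agents and glucose alone the ratio was 1.39, a difference of 0.47 ± 0.08 (limma SE) in log2(FPKM + 1), the scale of all differences below.

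SERPINB1 varied least over the 12 libraries, between 109.7 and 122 FPKM with a coefficient of variation of 3.21%, and gives a ratio within each library that does not depend on library scaling. MPO was 0.935 ± 0.0951 times SERPINB1 with BSA, 1.04 ± 0.159 times with AGEs, 0.776 ± 0.0356 times with glucose and 1.07 ± 0.00876 times with both agents (SD, n = 3). The ratio was lower in each glucose library, at 0.756 to 0.818, than in any other library. The higher means with AGEs than with BSA rest on AGEs 1, whose ratio was 1.22 against 0.95 and 0.945 in the other AGEs libraries. Without it, mean MPO with AGEs was 109.2 FPKM, 0.994 times that with BSA. MPO stood below SERPINB1 with glucose and above it with both agents, in either case with no overlap.

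**Figure D2:**
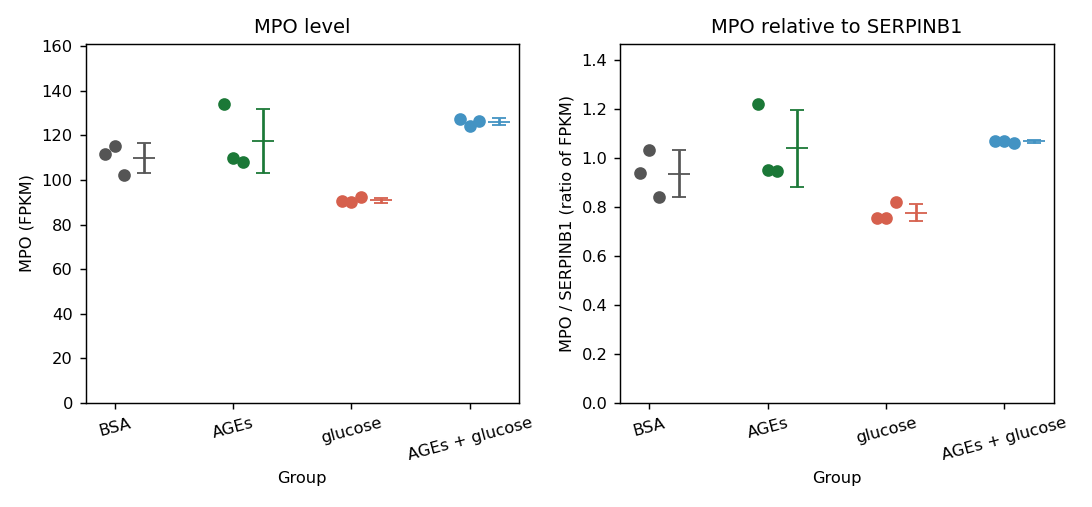
MPO in FPKM (left) and as a ratio to SERPINB1 in the same library (right) for the 4 groups, with 1 point per library and, beside the points, the mean with its SD (n = 3). Both axes start at 0. The glucose libraries lie at 90.1 to 92.3 FPKM, below the rest, and those with both agents at 124.3 to 127.3.

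With AGEs alone none of the 8 genes tested was called, where a call is a limma adjusted p under 0.05 over all genes (0.0308% of 9751 genes were called), and 0 had an unadjusted p under 0.05. None of the 8 had AGEs libraries that did not overlap those with BSA, against 8.8% of all genes tested. CTSG, which did not overlap, was outside the filter. MPO differed from BSA by 0.09 ± 0.08 (SE, adjusted p = 0.977 by limma), and by -0.01 without AGEs 1, whose 134.2 FPKM was the highest MPO value. GUSB, at 49.4, 47.5 and 38.4 FPKM with AGEs against 36.7, 42.3 and 45.7 with BSA, had the largest positive difference, 0.11 ± 0.11, and its groups overlapped (limma adjusted p = 0.977). Without AGEs 1 it was 0.04, and PRSS57 went from 0.1 to -0.04. LYZ had the lowest, -0.12 ± 0.16, which rests on AGEs 1. It read 5.02, 8.96 and 8.85 FPKM with AGEs against 8.05, 8.82 and 7.45 with BSA, and without AGEs 1 the difference was 0.12. SRGN also rests on AGEs 1, at 522.1 FPKM in AGEs 1 and 712.6 and 706.4 in the other AGEs libraries, and its difference went from -0.01 to 0.14 without AGEs 1.

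With glucose alone none of the 7 tested genes other than MPO was called by limma, against 0.103% of all genes, and 0 had an unadjusted p under 0.05. Their differences from BSA ran from -0.15 ± 0.11 for GUSB (adjusted p = 0.713, the smallest of the 7) to 0.08 ± 0.18 for PRSS57. GUSB read 41.4, 36.7 and 33.5 FPKM with glucose, a range that overlapped BSA. The glucose libraries of all 7 overlapped those with BSA. Of all genes tested 17% did not overlap, and 9.03% were lower with no overlap. SERPINB1 and CTSC were flat, with differences of -0.01 ± 0.05 and 0.04 ± 0.06.

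With both agents none of the 7 other than MPO was called against BSA by limma (0.0103% of all genes), and 0 had an unadjusted p under 0.05. PRTN3 had the largest difference of the 7, 0.18 ± 0.09 with an adjusted p = 0.892, from 1.18 ± 0.0909 to 1.46 ± 0.178 FPKM (SD, n = 3). PRTN3 was the only one of the 7 that was higher with no overlap, against 8.51% of all genes tested (17.6% in either direction). Against AGEs alone none of the 7 was called by limma (0.0103%), and 1 had an unadjusted p under 0.05. That was PRTN3, at 0.23 ± 0.09 (limma adjusted p = 0.984). Mean PRTN3 with AGEs was 1.11 FPKM, and 0.995 without AGEs 1. Libraries overlapped for all 7, and the share of genes without overlap was 8.82%.

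Between both agents and glucose alone none of the 7 other than MPO was called by limma (0.0308% of all genes), and 0 had an unadjusted p under 0.05. GUSB had the largest difference of the 7, 0.21 ± 0.11 with an adjusted p = 0.82. It read 43.5, 43.9 and 42.2 FPKM with both agents, above all 3 glucose libraries. LYZ, at 8.02, 8.2 and 8.28 FPKM against 7.54, 7.69 and 7.02, and PRTN3 also did not overlap, with differences of 0.12 ± 0.16 and 0.15 ± 0.09 (adjusted p = 0.969 and 0.874). That made 3 of the 7 higher with no overlap, against 7.67% of all genes tested (15.5% in either direction), and none of the 3 was called. The difference of the AGEs changes is the change from glucose alone to both agents, minus the change from BSA to AGEs. It was called by limma for none of the 7, against 0.0103% of all genes. BSA is named only in the second change, so a part of BSA in this difference cannot be told apart. The smallest limma adjusted p of the 7 for it was 0.995, and 0 had an unadjusted p under 0.05.

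**Figure D3:**
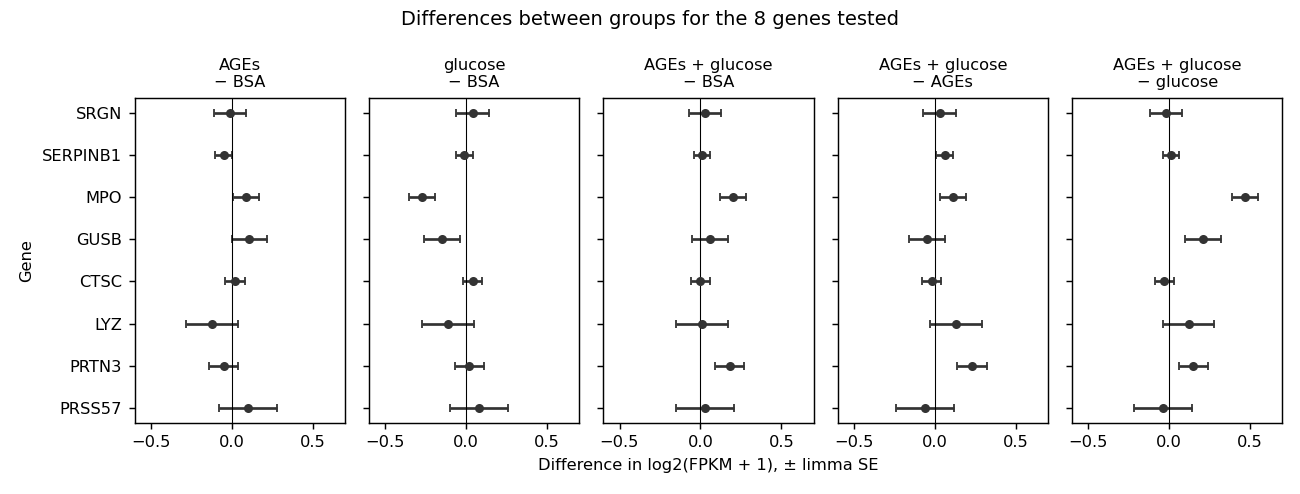
Difference in log2(FPKM + 1) between groups for the 8 genes tested, in 5 comparisons, with 1 point per gene and bars of 1 limma standard error. MPO lies at -0.27 for glucose against BSA and 0.47 for both agents against glucose, while SRGN, SERPINB1 and CTSC stay between -0.05 and 0.06 in all 5.

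The other genes of the pathway were taken as 7 lists with 100 genes, of which 71 were in the table and 70 were tested. None was called by limma in any of the 5 comparisons between groups, nor for the difference of the AGEs changes. The share called over all genes was 0.0103% to 0.103%, so none called among 70 is near that share. At an unadjusted p under 0.05 there were 3 with AGEs (4.29% against 4.74% of all genes), 13 with glucose (18.6% against 10%) and 6 with both agents against BSA (8.57% against 5.48%). For both agents there were 12 against AGEs (17.1% against 3.72%) and 10 against glucose (14.3% against 6.05%). For the difference of the AGEs changes there were 8 (11.4% against 4.89%).

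Other azurophil granule proteins were mostly abundant lysosomal ones, with 22 of 24 in the table and ELANE and DEFA4 not analysed here. PSAP, the precursor of the saposins, stood at 240.7 ± 7.82 FPKM with BSA, CTSD, the aspartic protease cathepsin D, at 215.8 ± 13.4, and FUCA1, a lysosomal fucosidase, at 195 ± 4.43 (SD, n = 3). With glucose 6 of the 22 differences were above 0, with a median of -0.04 against 0 over all genes. BPI, a granule protein that binds endotoxin, is named after its values were seen and was at 6.77 ± 0.286 with BSA, 7.04 ± 0.443 with AGEs, 5.7 ± 0.687 with glucose and 6.98 ± 0.41 FPKM with both agents. The alpha-defensin genes DEFA1, DEFA1B and DEFA3 are near-identical copies and the split of reads between them is uncertain, so they were summed. The sum was 11.9 ± 0.678 FPKM with BSA, 13.2 ± 4.08 with AGEs, 11.4 ± 4.07 with glucose and 16.4 ± 1.39 with both agents (SD, n = 3). Glucose 3 had the lowest defensin sum of its group, 6.89 FPKM against 12.4 and 14.8.

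EPX, eosinophil peroxidase, was the only other gene of the peroxidase family analysed. It read 11.8, 12.7 and 11.9 FPKM with BSA, 17.2, 12 and 12.3 with AGEs, 13.9, 13.6 and 14 with glucose and 16.3, 16.9 and 17.6 with both agents. EPX was above BSA in every glucose library, where MPO was below, and with both agents either gene was above BSA. Of the 9751 genes tested, 772 were higher and 881 lower with glucose than with BSA with no overlap. With both agents 830 were higher than with BSA with no overlap. EPX was called against BSA neither with glucose nor with both agents (limma adjusted p = 0.66 and 0.646). MPO was 9.06 ± 0.452 times EPX with BSA, 8.6 ± 0.73 times with AGEs, 6.58 ± 0.0708 times with glucose and 7.46 ± 0.323 times with both agents (SD, n = 3).

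Genes that fold MPO and make its heme were all in the table, 13 of 13. The chaperone CALR stood at 158 ± 14.2 FPKM with BSA, 180.8 ± 5.18 with AGEs, 173.4 ± 23.6 with glucose and 178.8 ± 19.3 with both agents. ALAS1, which starts heme synthesis, stood at 118.3 ± 2.71, 121.7 ± 2.48, 122 ± 2 and 131.2 ± 3.68 FPKM in the same order (SD, n = 3). Their medians against BSA were 0.03 with AGEs, 0.08 with glucose and 0.02 with both agents.

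Of the transcription factors of the granule programme, 9 of 10 were tested. CEBPB averaged 183.9 ± 5.96 FPKM with BSA against 162.2 ± 6.24 with glucose and 163.1 ± 2.73 with both agents. MYB, a factor of immature myeloid cells that is named after its values were seen, was at 7.78 ± 1.88 with BSA, 10.9 ± 0.331 with glucose and 7.4 ± 0.236 FPKM with both agents. Its glucose libraries were all above those with BSA, and it was not called (limma adjusted p = 0.383). Of the 9751 genes tested, 17% did not overlap in this comparison, 772 of them higher. GFI1 went the other way, at 37.6 ± 11.7 with BSA and 24.4 ± 3.68 FPKM with glucose, with overlap. Of the 9 factors, 3 had a difference above 0 with glucose. CEBPE, which drives the later granule genes, averaged 166.7 ± 7.63 with BSA against 157.6 ± 16.3 with glucose. SPI1, which encodes PU.1, averaged 141.1 ± 38.1 with BSA against 142.1 ± 28.6 FPKM with glucose (SD, n = 3). None of the 9 factors tested was called in any comparison by limma, against 0.0103% to 0.103% of all genes. Of the specific and gelatinase granule genes that follow in maturation, 7 of 20 were in the table, led by QSOX1 at 33.5 FPKM over the 12 libraries. Inhibitors of granule proteases other than SERPINB1 were led by the cystatin CSTA, at 64.8 ± 2.95 with BSA and 72 ± 1.42 FPKM with both agents. Of the genes of granule sorting and release, VAMP8 was highest, at 247.1 ± 25.5 with BSA, 298.8 ± 38.8 with glucose and 298.1 ± 5.6 FPKM with both agents (SD, n = 3).

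The genes most like MPO were sought over the 12 libraries among the 9750 other genes tested, as a description in which libraries of a group share their treatment. ITGAX, the integrin subunit CD11c, came first with Pearson r = 0.96 and Spearman rho = 0.99. It stood at 13.7 ± 0.653 FPKM with BSA, 14 ± 1.09 with AGEs, 11.1 ± 0.498 with glucose and 14.5 ± 0.167 with both agents (SD, n = 3). HDAC5, a histone deacetylase, had r = 0.94, and CSF3R, the receptor of granulocyte colony-stimulating factor, ATG16L2, a relative of an autophagy protein, and GNA15, a G protein subunit, each had r = 0.9. HDAC5 was at 5.79 ± 0.486 with BSA, 3.98 ± 0.192 with glucose and 6.39 ± 0.282 FPKM with both agents, and CSF3R at 17.8 ± 0.49, 13.2 ± 0.523 and 18.2 ± 0.708. In all 5 the mean was lowest with glucose. They were picked for likeness to MPO, which was known to be low there, so this follows from the picking. CSF3R is also 1 of the neutrophil markers. Of the other 7 tested granule genes the most like MPO was GUSB, with r = 0.61 and place 486 of 9750. PRTN3 had r = 0.41 and place 1569, and LYZ, SERPINB1, SRGN and CTSC had negative values, from -0.13 to -0.53. AGEs 1 held the highest value of MPO and GUSB and the lowest of LYZ, SERPINB1, SRGN and CTSC. These r values lean on that library, and r without it was not computed. By rank LYZ had a Spearman rho of 0.14, and SERPINB1, SRGN and CTSC had -0.31, -0.51 and -0.53.

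**Figure D4:**
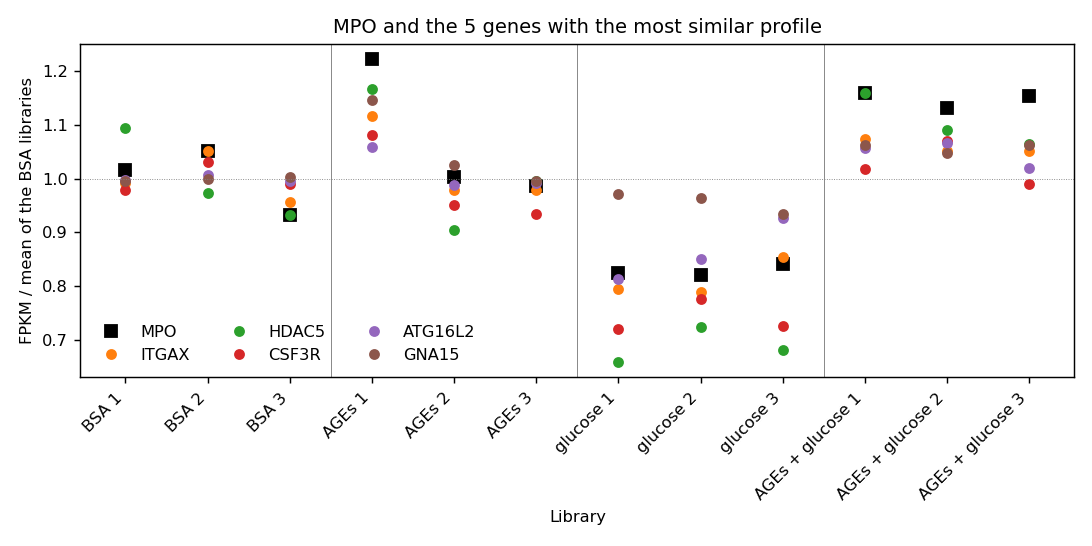
FPKM relative to the mean of the BSA libraries for MPO (squares) and the 5 genes with the most similar profile (circles) in each of the 12 libraries; the axis does not start at 0. MPO was known to be low with glucose, and the 5 were picked for likeness to it. All 6 lie below 1 in the 3 glucose libraries, and MPO is highest in AGEs 1.

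Markers of cell types were summed per library to set beside MPO, and their part in its values was not tested. Summed over the 14 neutrophil markers in the table, each library held 1812 to 1858 FPKM with BSA, 1805 to 1851 with AGEs, 1684 to 1799 with glucose and 1820 to 1857 with both agents. The 8 eosinophil and basophil markers summed to 2200 to 2483, 2445 to 2609, 2402 to 2639 and 2711 to 2796 FPKM in that order. CLC alone made up most of this sum, at group means of 2199, 2356, 2357 and 2535 FPKM. Monocyte markers, of which 3 of 10 were in the table, summed to 14.3 to 17, 12.6 to 16.6, 11.3 to 13.2 and 12.7 to 14.2, and CD14 was not analysed here. The 2 of 10 erythroid and lymphoid markers in the table summed to 2.27 to 3.26 FPKM over the 12 libraries. Genes of dividing cells, 6 of 7 in the table, summed to 92.6 to 94.7, 81.2 to 103.4, 90.9 to 102.6 and 91.7 to 104.1 FPKM. The neutrophil sum was lower in every glucose library than in any BSA library, lowest in glucose 3 and closest in glucose 2, at 1799 against 1812 in BSA 2. Not all its genes were lower: S100A9 averaged 406.7 ± 69.6 FPKM with glucose against 366.1 ± 31.3 with BSA, and S100A8 42.6 ± 5.99 against 35.4 ± 1.39 (SD, n = 3). The monocyte sum was below every BSA library both with glucose and with both agents, where MPO was above BSA. CSF1R led it, at 9.74 ± 1 with BSA, 6.66 ± 0.446 with glucose and 8.25 ± 0.127 FPKM with both agents. In whole-culture RNA, fewer cells of a type and less RNA per cell cannot be told apart.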

How the data were processed

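Per the file headers, the authors deposited an FPKM value for each gene and library. Tools named in the submitters' processing notes are STAR 2.5.2b, HISAT2 2.0.5, cutadapt and StringTie, and the build named is hg19; their roles are not stated. Annotation, strand setting and filter: not given in the sources used here. Values fall on no whole multiples, so read depth is unknown and no counting interval was computed.

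Rows were kept with FPKM of at least 1 in at least 3 libraries, which left 9751. All 12 libraries entered 1 fit of 4 group means to log2(FPKM + 1) in limma 3.58.1 (R 4.3.3, statmod 1.5.0), with intensity trend and robust moderation. Differences understate the change of low genes. Adjusted p-values are Benjamini-Hochberg values over all genes tested.

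The genes and lists were chosen with earlier results of these data known. Named are the 10 genes, the most abundant of each list and the 5 genes most correlated with MPO. Other named genes were chosen after their values were seen. Alternatives were a pseudocount of 0.1, no filter, median scaling (on genes with mean FPKM of at least 5), quantile normalization, the replicate number as a block, the compared groups alone and leaving out each library. Promoter windows and chromosomes are RefSeq's (GRCh38.p14).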

Additional observations from a re-analysis of the deposited data

How the results depend on the processing

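None of the 7 tested granule genes other than MPO was called in any of the 5 comparisons or for the difference of the AGEs changes, with a pseudocount of 0.1, no filter, median scaling, quantile normalization, the replicate block, 1 library left out or, where it could be tested, the compared groups alone. The count with MPO was 0 as well, except for both agents against glucose, where it was 1 with these 2 groups alone and 0 to 1 with 1 library left out (1 without AGEs 1). That 1 was MPO, which was picked for this difference, so it is no test of it; the difference ran from 0.46 to 0.48. With no filter CTSG and AZU1 were tested and not called. For PRTN3, both agents against AGEs, the pseudocount of 0.1 gave 0.38 in place of 0.23.

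Numbers of all genes called changed more. With glucose against BSA 10 were called, 7 after quantile normalization, 5 in the compared groups alone and 3 to 16 with 1 library left out. For both agents against glucose 3 were called, 2 after quantile normalization and with no filter, 5 in the compared groups alone and 0 to 7 with 1 library left out. With AGEs against BSA 3 were called, 2 with median scaling, 7 in the compared groups alone and 2 to 6 with 1 left out. For both agents 1 was called against BSA and 1 against AGEs, 0 and 1 in the compared groups alone, 1 and 2 with no filter, and 1 to 3 and 1 to 4 with 1 left out. For the difference of the AGEs changes 1 was called, 3 with no filter and 0 to 4 with 1 left out. Without AGEs 1, 16 genes were called with glucose against BSA and 7 for both agents against glucose. With the replicate block the 5 counts, in the order AGEs, glucose and both agents against BSA, then both against AGEs and against glucose, were 2, 2, 1, 1 and 0. Libraries of different groups with the same number deviated together at r over 0.1 in 2 of 18 pairs, so the numbers do not pair them. Differences of genes near 1 FPKM are limited by an unknown read depth.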
